A study of Mus musculus with 6 samples.

Results

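Cytochrome P450 genes were examined in embryonic mouse kidneys with and without the transcription factor Sall1. Members were the genes whose symbol is Cyp followed by a family number, a subfamily letter and a gene number, Cyp11a1 left out, found through the RefSeq accessions of the array's probes. Of 93 such symbols in the annotation, 71 had a probe, and 50 of these were kept because their brightest probe passed the scanner's test of being well above background on 2 or more arrays, out of 26396 features kept in all. Of the members kept, 36 were well above background on all 6 arrays.

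Sall1 is a zinc finger factor of the nephron progenitors, and its loss was studied in embryos at E14.5 (embryonic days) in 2 lines of floxed mice on a hybrid background of 129 and C57BL/6. The Six2Cre line deletes Sall1 in nephron progenitors, which Six2 marks, and gave control arrays 5 and 2 and Sall1 knockout arrays 7 and 9. In the line with an inducible CreER, tamoxifen was given at E12.5 and kidneys were taken 48 hours later, with 1 control (titled wt/flox, replicate 2) and 1 knockout (titled CreER/flox, replicate 5). Since only the knockout's title names CreER, an effect of CreER and of losing Sall1 cannot be told apart in that pair. The line was read from the titles together with the design text. Not given in the labels are the part of Sall1 that is floxed, the presence of Cre in the Six2Cre controls, how many embryos the samples of a group came from, and whether the tamoxifen that one description gives for all samples also went to the Six2Cre mice. All p-values below measure only the spread between these samples, which may be technical, and the number of arrays limits their precision.

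Cytochromes P450 are haem enzymes that insert oxygen into small molecules with electrons from a reductase. Members of families 1 to 3 oxidise foreign compounds and lipids, members of family 4 hydroxylate fatty acids at the far end of the chain, and other members make or destroy signalling molecules such as retinoic acid, vitamin D, steroids and oxysterols. In the kidney many P450 enzymes of the lipid and drug handling families are found in the proximal tubule, which derives from the nephron progenitors, and retinoic acid made by the stroma takes part in the growth of the embryonic kidney.

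The promoters shown here are those of 3 members that were lower in both Six2Cre knockouts, chosen because each holds a motif of a factor measured on the same arrays. Each is the RefSeq window of GRCm38.p6 from 250 bases before to 50 after the annotated start, read 5′ to 3′ along the gene, with the match in capitals. Cyp26a1, on the plus strand at chr19:37697558-37697857, held a DR5 retinoic acid response element (a direct repeat that retinoic acid receptors bind), on the opposite strand, between 32 and 16 bases before the start. Cyp2d26, on the minus strand at chr15:82794196-82794495, held the HNF1 motif GTTAAT as its reverse complement. Cyp2a5, on the plus strand at chr7:26835089-26835388, held the HNF4 core CAAAGTCC.
Cyp26a1: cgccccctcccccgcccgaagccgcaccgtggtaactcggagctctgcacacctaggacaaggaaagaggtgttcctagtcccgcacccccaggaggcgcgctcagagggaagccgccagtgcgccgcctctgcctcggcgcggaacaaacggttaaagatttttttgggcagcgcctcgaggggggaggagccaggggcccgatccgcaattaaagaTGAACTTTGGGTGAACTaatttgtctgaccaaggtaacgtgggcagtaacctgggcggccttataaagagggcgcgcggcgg
Cyp2d26: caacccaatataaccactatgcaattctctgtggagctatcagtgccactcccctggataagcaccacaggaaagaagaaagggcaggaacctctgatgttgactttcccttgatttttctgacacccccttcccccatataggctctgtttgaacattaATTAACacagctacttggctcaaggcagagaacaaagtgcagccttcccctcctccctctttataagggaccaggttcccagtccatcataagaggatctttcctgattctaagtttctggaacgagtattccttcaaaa
Cyp2a5: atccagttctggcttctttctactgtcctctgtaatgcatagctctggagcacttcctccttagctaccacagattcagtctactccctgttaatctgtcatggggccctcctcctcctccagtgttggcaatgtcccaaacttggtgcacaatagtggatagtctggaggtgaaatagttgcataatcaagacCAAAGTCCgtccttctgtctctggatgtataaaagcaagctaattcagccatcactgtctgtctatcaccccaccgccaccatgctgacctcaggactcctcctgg

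Of the 50 members, 37 had an entry in the promoter table, in 40 windows, and 6 motifs were searched on both strands. The DR5 element lay in 0.0983% of all 32544 promoters and, among members, in Cyp26a1 alone. The HNF4 core lay in 1.43% of all promoters and in those of 7 members, Cyp2a4, Cyp2a5, Cyp2c40, Cyp2c66, Cyp2c70, Cyp3a11 and Cyp4f18. The HNF1 motif lay in 7.13% of all promoters and in those of 5 members, Cyp19a1, Cyp2a4, Cyp2a5, Cyp2c40 and Cyp2d26. TATAAA lay in 13.6% of all promoters and in those of 17 members, and GCGTG, the core of the xenobiotic response element, in 32.6% of all promoters and in those of 10 members. A DR1 nuclear receptor element lay in 0.129% of all promoters and in none of the members' windows. Where a member's windows overlap those of a neighbour or copy, the matches are not separate, and a match describes letters and not binding. Cyp4a10, Cyp4a14 and Cyp4a31 had no entry.

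Values are log2 of Agilent's processed signal minus the 75th percentile of the array, so that 0 is the level of a fairly bright probe and 1 unit is a 2-fold step. Levels are compared between arrays for 1 probe, or for the sum over a list of markers, and never between probes. Such a sum adds linear signals, so the brightest probes of the list weigh most in it. Well above background was reached by 80.0% to 82.9% of probes on 5 arrays and by 71.8% on CreER knockout 5, where the SD of the negative controls was 4.01 against 1.47 to 1.62 elsewhere. On that array 36 members were well above background, against 45 to 48 on the others. Sall1 itself stood at -1.38 and -0.77 in the Six2Cre controls and at -2.65 and -2.00 in the knockouts, and at -1.28 in the CreER control and -4.06 in the CreER knockout. The place of its probe relative to the floxed part is not known. Slide 1 held Six2Cre control 5 and knockout 7, and slide 2 the remaining 4 arrays, so that each slide had 1 Six2Cre pair.

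In the Six2Cre line the processed signal of a small set of P450 genes was at least 2-fold lower in both slide pairs, though none passed the test. Most of the family had smaller differences in both directions. The set held Cyp4a31 and Cyp4a10 of the fatty acid hydroxylases, Cyp2d26, Cyp2j5 and Cyp2a5 of the drug and lipid oxidising families, and Cyp26a1, which destroys retinoic acid. The processed signal had an at least 2-fold lower mean for 8 members (16.0%), against 3.14% of all features. It had an at least 2-fold higher mean for 1 member (2.00%), against 2.96%. The 8 were 3 with normexp background correction, which leaves an offset of 50 on every signal, and 4 when a gene had to be well above background on all 6 arrays. Without Six2Cre control 2 they were 6, since Cyp2c40 and Cyp2c23 were lower through that array alone. In both slide pairs the processed signal of 6 members was at least 2-fold lower, against 1.68% of all features, and that of 0 at least 2-fold higher, against 1.54%. Of these 6, Cyp4a31 and Cyp2a5 were not well above background in either knockout, and Cyp2a5 is bounded at only 1.57-fold. The median difference over the 50 members was 0.05, and over all features it was 0.03; 24 members were below 0 and 26 above.

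In the limma fit of 4 groups (2 residual degrees of freedom) no feature of 26396 had an adjusted p under 0.05, which is 0% of all features and 0 members. The lowest adjusted p was 0.0860. At an unadjusted p under 0.05, 7 members were lower, against 2.70% of all features, and 1 was higher, against 3.63%. Of the 7, Cyp4a31, Cyp2a5 and Cyp2g1 were well above background in no knockout and were kept through control arrays alone. The filter thus favoured a lower knockout signal for them, and their p-values rest on knockout signals near background. With the slide as a block 0 features were called, and with the block and a trended, robust spread 322 features were lower (1.22%) and 303 higher (1.15%). Of the members, 4 were among those called lower in that alternative, Cyp4a31, Cyp2d26, Cyp4a10 and Cyp26a1, and 0 among those called higher. The call of Cyp4a31 has the same limit. No P450 gene is therefore said below to have risen or fallen. In kidney RNA taken as a whole, fewer cells of a type and less RNA per cell cannot be told apart.

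**Figure D1:**
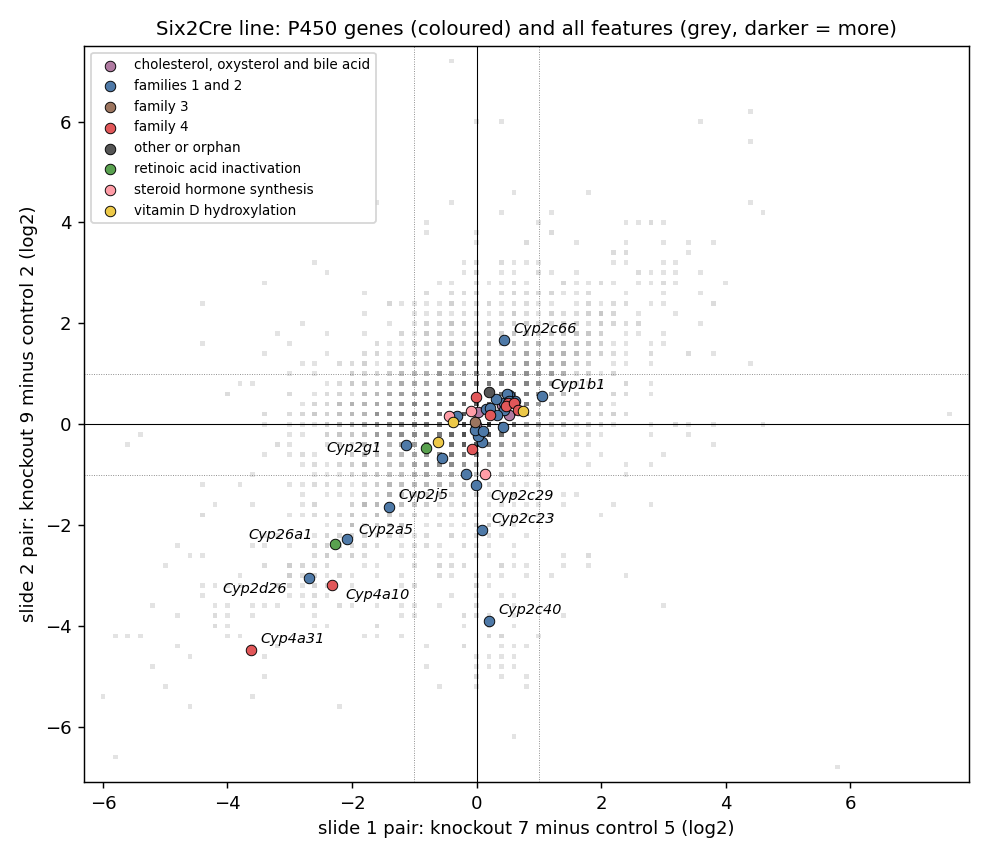
Knockout minus control on the log2 scale in the slide 1 pair (x axis) and the slide 2 pair (y axis) of the Six2Cre line, with 1 coloured point per P450 gene by role and grey squares for bins of all 26396 features, darker where more fall. Dotted lines mark 2-fold; 6 genes lie beyond it on the lower left, and Cyp2c40 and Cyp2c23 lie low in the slide 2 pair alone.

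Cyp26a1 and Cyp26b1 are enzymes that clear retinoic acid, and both were lower in the knockouts of both lines. Cyp26a1 stood at -3.43 and -3.0 in Six2Cre controls 5 and 2, at -5.70 and -5.38 in knockouts 7 and 9, at -2.96 in the CreER control and at -6.94 in the CreER knockout. All 3 knockouts lay below all 3 controls. The Six2Cre difference was -2.32 ± 0.29 (SE, n = 2 against 2; limma adjusted p = 0.142), a mean 5.0-fold lower signal, with -2.27 on slide 1 and -2.38 on slide 2. On the CreER knockout array the probe was not well above background, and the signal was at least 11-fold lower than in the CreER control, where the bound sets the control against the array's dimmest signal well above background. With normexp the differences of Cyp26a1 were -1.46 in the Six2Cre line and -1.81 in the CreER pair.

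Cyp26b1, the second enzyme of this kind, stood at 1.44 and 1.18 in the Six2Cre controls, at 0.63 and 0.70 in the knockouts, at 1.25 in the CreER control and at 0.82 in the CreER knockout. The 3 knockouts again lay below the 3 controls, by less than 1 log2 unit in each pair. Between the Six2Cre groups it differed by -0.65 ± 0.25 (SE; limma adjusted p = 0.811). Its differences of -0.81 and -0.48 on the slides were larger than the 0.26 between its controls.

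Other genes of the retinoid pathway gave a different picture. Of 13 measured in that list, 4 were lower and 9 higher in the Six2Cre knockouts, with a median of 0.48, and 0 passed the test. The 3 of lowest p were all higher. Crabp1 and Crabp2, which bind retinoic acid inside cells, had differences of 1.52 and 1.01, and Aldh1a2, which makes retinoic acid in the renal stroma, had 0.76 (limma adjusted p = 0.395, 0.506 and 0.752). The same genes in the CreER pair had -0.05, -0.16 and 0.38, and the list's median was -0.07.

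**Figure D2:**
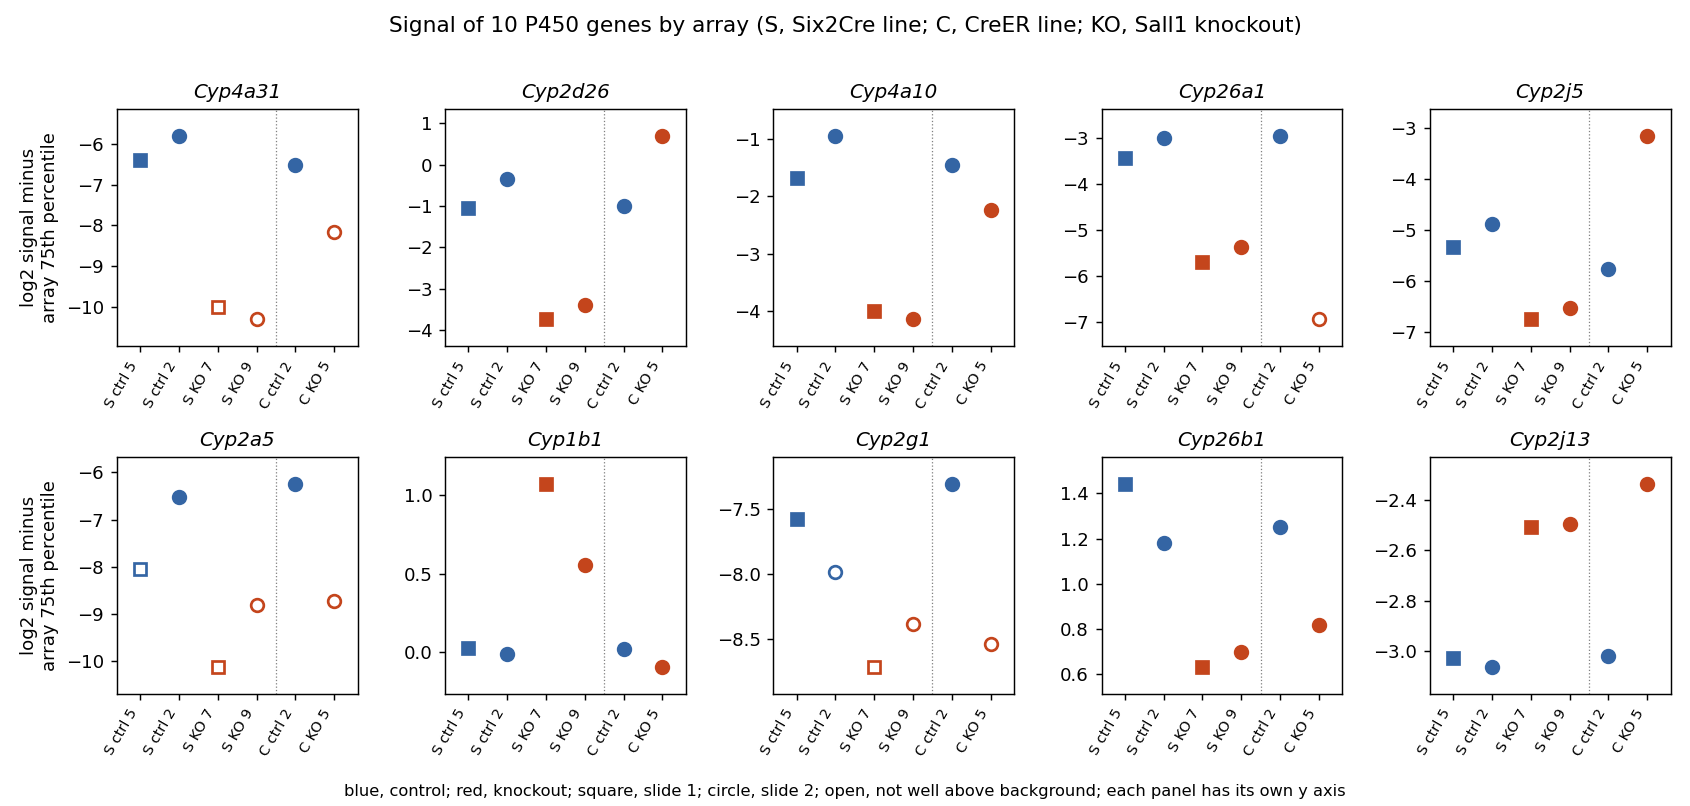
Signal of the 10 P450 genes of lowest p in the Six2Cre contrast on each of the 6 arrays, as log2 signal minus the array's 75th percentile, with 1 point per array. Blue is control and red knockout, squares are slide 1 and circles slide 2, and open points were not well above background; Cyp2d26 and Cyp2j5 are lowest in the Six2Cre knockouts and highest in the CreER knockout.

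The fatty acid hydroxylases of family 4 had 9 members kept, of which 3 were below 0 and 6 above in the Six2Cre line, with a median of 0.26. Cyp4a10, a kidney and liver enzyme that hydroxylates fatty acids and arachidonic acid, stood at -1.69 and -0.96 in the Six2Cre controls and at -4.0 and -4.14 in the knockouts, and at -1.46 and -2.24 in the CreER control and knockout. The Six2Cre knockouts lay below every other array and the CreER knockout lay between them and the controls. Between the Six2Cre groups the difference was -2.75 ± 0.34 (SE; limma adjusted p = 0.140), a 6.71-fold lower mean, and the CreER difference was -0.78. Of its 2 other kept probes, one gave -4.26 in the Six2Cre line, well above background in 1 of the 2 knockouts, and -0.93 in the CreER pair. The last was not well above background in any knockout, and its Six2Cre signal was at least 1.54-fold lower.

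Cyp4a31 lies next to Cyp4a10 in the gene order and had the lowest p of all members. It stood at -6.39 and -5.82 in the Six2Cre controls and at -10.01 and -10.30 in the knockouts, and at -6.52 and -8.16 in the CreER control and knockout. The probe was well above background in the 3 controls and in none of the 3 knockouts, so that the knockouts have only a bound. The Six2Cre signal was at least 3.55-fold lower, and the fitted difference was -4.05 ± 0.32 (SE; limma adjusted p = 0.0860). No fold is given for the CreER pair, because its control lay under the dimmest signal well above background on the knockout array. With normexp the Six2Cre difference of this dim probe was -0.54.

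The neighbour on the other side of Cyp4a10, Cyp4a14, which was named after its values were seen, did not share these values. It stood at -6.48 and -7.21 in the Six2Cre controls and at -6.50 and -6.68 in the knockouts, which overlapped. Its Six2Cre difference was 0.26 ± 0.34 (SE; limma adjusted p = 1.00). The Cyp4a genes are close copies of each other, so that probes of 1 gene may take up transcripts of another. The 6 other members of family 4, Cyp4b1, Cyp4f13, Cyp4f16, Cyp4f18, Cyp4f39 and Cyp4v3, had Six2Cre differences from -0.29 to 0.51 and CreER differences from -0.28 to 0.25.

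Of genes for handling fatty and arachidonic acids, 11 of 15 were lower in the Six2Cre knockouts, with a median of -0.38, and 0 passed the test. The thioesterase gene Acot3, the fatty acid transporter gene Slc27a2 and the peroxisomal oxidase gene Acox2 had the lowest p. Their Six2Cre differences were -2.85, -1.37 and -1.36 (limma adjusted p = 0.118, 0.392 and 0.686). Their CreER differences were 0.02, 1.69 and 1.40, and the list's median was 0.17. Acot3 and Acox2 were each well above background on 3 arrays only. The Six2Cre knockouts of Acot3, at -9.85 and -10.26, lay under the dimmest signal well above background on their arrays. Both CreER values of Acox2, -8.21 and -6.80, did so too, so these differences rest on signals near background.

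Families 1 and 2, the drug and lipid oxidising enzymes, had 27 members kept, Cyp2r1 being counted with vitamin D. In the Six2Cre line 14 were below 0 and 13 above, with a median of -0.01. Cyp2d26 stood at -1.04 and -0.34 in the Six2Cre controls and at -3.74 and -3.40 in the knockouts, and at -0.99 in the CreER control and 0.68 in the CreER knockout. The Six2Cre knockouts were the lowest 2 arrays and the CreER knockout was the highest of the 6. The Six2Cre difference was -2.87 ± 0.35 (SE; limma adjusted p = 0.137), a 7.32-fold lower mean, with -2.69 and -3.05 on the slides. The CreER difference was 1.67, a 3.19-fold higher signal in the knockout, without replication.

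Cyp2j5, an enzyme of the kidney that turns arachidonic acid into epoxides, had the same form. It stood at -5.34 and -4.89 in the Six2Cre controls and at -6.74 and -6.52 in the knockouts, and at -5.76 in the CreER control and -3.17 in the CreER knockout. The Six2Cre knockouts were again lowest and the CreER knockout highest. The Six2Cre difference was -1.52 ± 0.29 (SE; limma adjusted p = 0.278), with -1.40 and -1.63 on the slides, and the CreER difference was 2.59, a 6.01-fold higher signal. Its second probe gave -1.0 and 2.62. With normexp the Six2Cre difference of the first probe was -0.52 and the CreER difference 1.54.

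The effect in the Six2Cre line minus that in the CreER line was -4.55 for Cyp2d26 (SE 0.60; unadjusted p = 0.000855) and -4.11 for Cyp2j5 (SE 0.50; unadjusted p = 0.000582), and both had a limma adjusted p of 0.876. This test assumes that the single CreER arrays vary as the Six2Cre groups do. Over all features 0% were called, with 0 members, and the lowest adjusted p was 0.876. At an unadjusted p under 0.05 the Six2Cre effect was lower for 6 members, against 1.16% of all features, and higher for 1, against 1.17%. The 6 were Cyp2d26, Cyp2j5, Cyp4a31, Cyp4a10, Cyp1a1 and Cyp2d10, and the 1 was Cyp26a1. Of these, Cyp4a31 was not well above background in any knockout of either line. Cyp1a1 and Cyp26a1 were not well above background on the CreER knockout array, the one with the noisiest background. The line differences of these genes therefore rest in part on signals near background, and the counts include them.

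**Figure D3:**
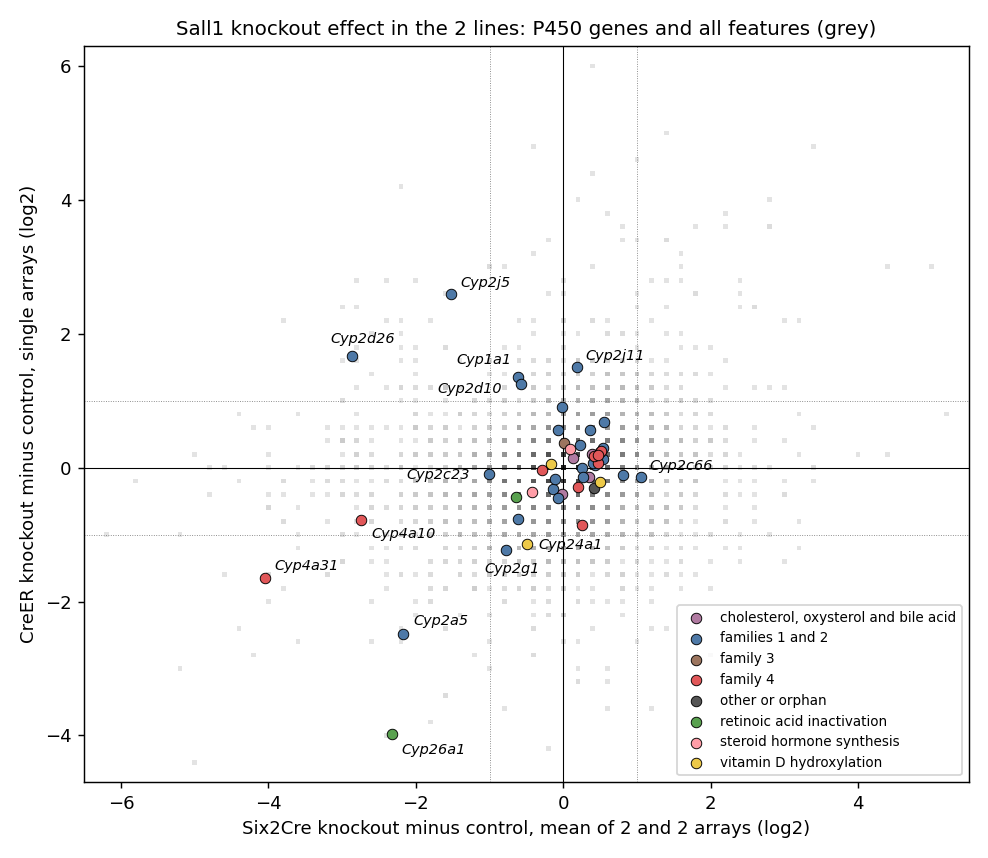
Six2Cre knockout minus control (x axis, log2, means of 2 and 2 arrays) against CreER knockout minus control (y axis, log2, single arrays) for the 48 P450 genes well above background on at least 1 CreER array, coloured by role, over grey bins of all features measured in that pair. Dotted lines mark 2-fold; Cyp2d26 and Cyp2j5 lie on the upper left, and Cyp26a1, Cyp2a5 and Cyp4a31 on the lower left.

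Other genes of the Cyp2j cluster differed from Cyp2j5. In the gene order Cyp2j13 is at one end and Cyp2j5 at the other, with Cyp2j9 next to Cyp2j5 and Cyp2j6 beside Cyp2j9. Cyp2j13 stood at -3.03 and -3.06 in the Six2Cre controls and at -2.51 and -2.49 in the knockouts, and at -3.02 and -2.33 in the CreER control and knockout, so that all 3 knockouts were above all 3 controls. Its Six2Cre difference was 0.55 ± 0.24 (SE; limma adjusted p = 0.891). Cyp2j9 and Cyp2j6, named after their values were seen, had Six2Cre differences of 0.54 and 0.54 and CreER differences of 0.29 and 0.13. Both slide pairs were above 0 for each of these 3 genes, where Cyp2j5 had both below 0.

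In the CreER pair the probes of Cyp2j13 did not give 1 value. The brightest probe gave 0.69, and the other 2 gave 3.05 and 4.52. The last stood at -4.32 in the CreER control and at 0.20 in the CreER knockout, against -3.78 to -2.76 on the Six2Cre arrays. Cyp2j11 stood at -3.48 and -4.92 in the Six2Cre controls and at -3.06 and -4.98 in the knockouts, and at -4.95 and -3.45 in the CreER control and knockout. Its Six2Cre values followed the slide and the groups overlapped, with a difference of 0.18 ± 0.82 (SE; limma adjusted p = 1.00). Its 2 probes gave 1.5 and 1.69 in the CreER pair. The Cyp2j genes are near copies, so that signals may be shared between them.

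**Figure D4:**
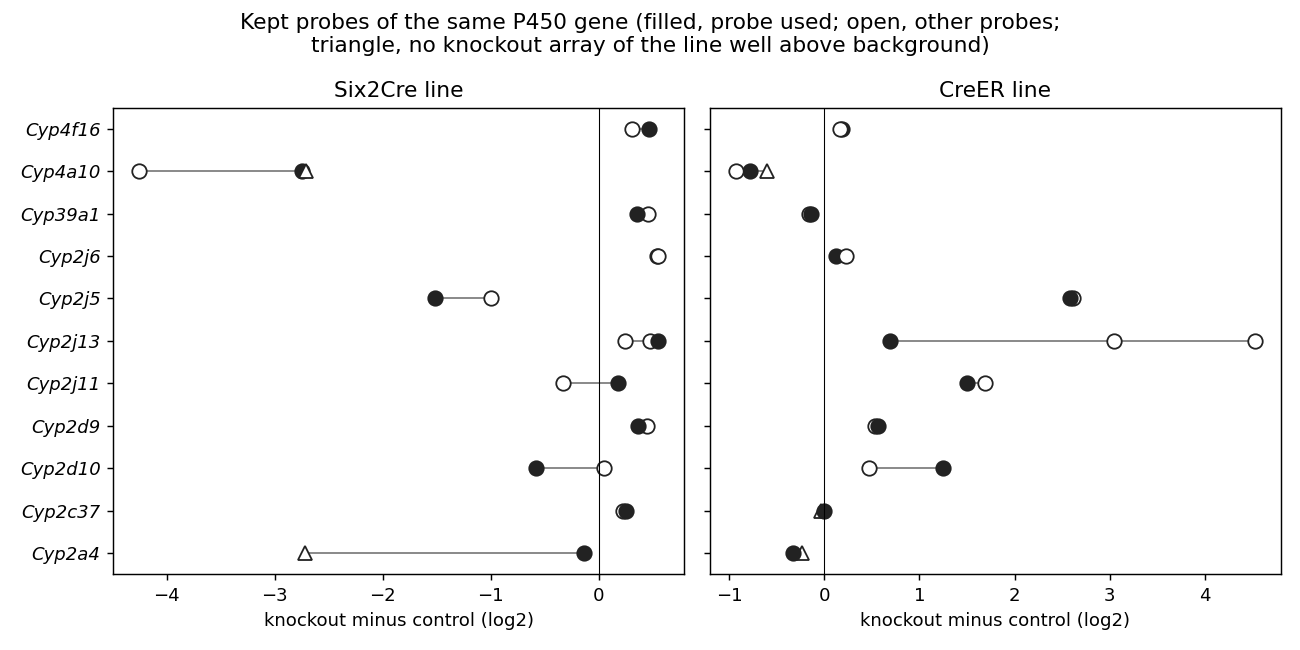
Knockout minus control on the log2 scale for each kept probe of the 11 P450 genes with more than 1 kept probe, in the Six2Cre line (left) and the CreER line (right); filled points are the probe that stands for the gene and open points the others. The probes of Cyp2j13 lie between 0.69 and 4.52 in the CreER line, and triangles mark differences against signals near background, such as the lower probe of Cyp2a4 in the Six2Cre line.

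Cyp2a5, an enzyme that oxidises coumarin and nicotine, was dim on every array. It stood at -8.04 and -6.52 in the Six2Cre controls and at -10.12 and -8.80 in the knockouts, and at -6.25 and -8.73 in the CreER control and knockout. The probe was well above background on Six2Cre control 2 and the CreER control alone, and all 3 knockouts lay below all 3 controls. The signal was at least 1.57-fold lower in the Six2Cre knockouts and at least 1.13-fold lower in the CreER knockout. The fitted Six2Cre difference was -2.18 ± 0.70 (SE; limma adjusted p = 0.645), and with normexp it was -0.23 and the CreER difference -0.28.

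Cyp2a4, a close copy of Cyp2a5 that was named after its values were seen, had probes with unlike values. The brightest had a Six2Cre difference of -0.13, with 0.08 and -0.35 on the slides. The other kept probe, well above background on 3 arrays, stood at -7.36 and -6.99 in the Six2Cre controls and was not well above background in either knockout, which gives an at least 1.70-fold lower signal. In the CreER pair these probes gave -0.32 and -0.23. Cyp2g1, next to Cyp2a5 in the gene order and known from the olfactory mucosa, stood at -7.57 and -7.98 in the Six2Cre controls, at -8.71 and -8.39 in the knockouts, and at -7.31 and -8.53 in the CreER control and knockout. It was well above background on 2 control arrays, its Six2Cre signal was at least 1.12-fold lower, and with normexp its differences were -0.06 and, in the CreER pair, 0.07.

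Cyp1b1, which oxidises steroids, retinoids and aromatic compounds, was the 1 member higher at an unadjusted p under 0.05 in the Six2Cre line. It stood at 0.02 and -0.01 in the controls and at 1.07 and 0.55 in the knockouts, and at 0.02 and -0.09 in the CreER control and knockout. The Six2Cre knockouts lay above all other arrays, which lay between -0.09 and 0.02. The difference was 0.81 ± 0.29 (SE; limma adjusted p = 0.752). Without Six2Cre knockout 7 it was 0.55. Cyp1a1, the classic target of the aryl hydrocarbon receptor, stood at -7.73 and -7.21 in the Six2Cre controls, at -8.29 and -7.88 in the knockouts, at -8.08 in the CreER control and at -6.73 in the CreER knockout. This last value was not well above background on its array, so its 2.55-fold difference from the CreER control has a brighter side that is not well above background. With normexp its differences were -0.11 and, in the CreER pair, 0.45.

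Cyp2d10, a neighbour of Cyp2d9, stood at -3.21 and -2.69 in the Six2Cre controls and at -3.38 and -3.68 in the knockouts, and at -3.05 and -1.80 in the CreER control and knockout. The Six2Cre knockouts lay just below the controls, and the CreER knockout was the highest array. Its differences were -0.58 ± 0.31 (SE; limma adjusted p = 1.00) and 1.25, while its second probe gave 0.05 and 0.47. Cyp2d9, Cyp2d12 and Cyp2d22, which were named after their values were seen, were also above 0 in the CreER pair, at 0.57, 0.91 and 0.24. All 5 kept Cyp2d genes were thus higher in the CreER knockout, which is a single array. Over all 26396 features, 13492 were below 0 in that pair.

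Cyp2c genes shared no direction, with 4 of 7 below 0 in the Six2Cre line. The member at least 2-fold higher in the Six2Cre line was Cyp2c66, at -7.30 and -8.53 in the controls and at -6.86 and -6.87 in the knockouts. Its difference of 1.05 ± 0.47 (SE; limma adjusted p = 0.911) rested on the low control 2, which was not well above background, and was 0.44 on slide 1. The other 2 members with 2-fold lower means, Cyp2c40 and Cyp2c23, rested on the same array. Cyp2c40 stood at -4.15 on Six2Cre control 2 and between -8.47 and -7.48 on the other 5 arrays, with differences of 0.20 on slide 1 and -3.90 on slide 2. Cyp2c23, an arachidonic acid epoxygenase of the kidney, stood at -7.66 and -5.50 in the Six2Cre controls, at -7.57 and -7.60 in the knockouts, and at -6.06 and -6.16 in the CreER pair. These 3 genes were named after their values were seen.

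Six2Cre control 2 also stood apart in markers of other tissues. The median of the 11 liver markers, each set against its mean over the arrays, was 2.68 there, against -1.20 to 0.57 on the others, and that of the 13 muscle markers was 3.25, against -0.98 to -0.12. Summed liver marker levels were 2.46 and 3.93 in the Six2Cre controls, 0.62 and 0.51 in the knockouts, and 1.61 and 1.60 in the CreER control and knockout, on the log2 scale. All 11 liver markers were lower in the Six2Cre knockouts, with a median of -2.28, and of -1.5 on slide 1 alone. In the CreER pair 6 of these markers were lower and 5 higher, with a median of -0.07, and 1 was at least 2-fold lower.

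Cyp2d26, Cyp4a10, Cyp26a1, Cyp2j5 and Cyp2a5 are also expressed in or known from liver, and their values without Six2Cre control 2 were -2.52, -2.38, -2.11, -1.29 and -1.42, with -3.76 for Cyp4a31. Cyp2a5 was not well above background on any of the Six2Cre arrays left, and Cyp4a31 was not in the knockouts. The part of liver RNA in these differences was not tested. The liver enzymes Cyp2e1, Cyp1a2, Cyp7a1 and Cyp8b1 were among the 21 members not kept, of which 18 were well above background on 0 arrays and 3 on 1 (Cyp7a1, Cyp2b23 and Cyp4f15). Cyp3a11, the main drug oxidising P450 of family 3 in mouse liver, stood at -4.06 and -4.68 in the Six2Cre controls, at -4.08 and -4.63 in the knockouts, and at -4.27 and -3.90 in the CreER pair. Its Six2Cre values followed the slide and not the genotype, with a difference of 0.01 ± 0.36 (SE; limma adjusted p = 1.00). No liver sample was measured, so the level of these enzymes in liver at E14.5 is not known here. Their values therefore do not bear on the part of liver RNA.

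Markers of the proximal tubule were lower beside these P450 genes in the Six2Cre line, and of both signs in the CreER pair. Of 20 measured, 17 were lower in the Six2Cre knockouts, with a median of -2.33, and 0 passed the test. Amn, Slc34a1 and Ttc36 had the lowest p, with differences of -3.80, -5.71 and -3.18 (limma adjusted p = 0.0860, 0.0860 and 0.0906). In the CreER pair the list's median was 0.28, with 7 lower and 13 higher. At least 2-fold higher there were 2, Slc22a6 at 1.71 and Slc3a1 at 1.42, which were named after their values were seen. These transporter genes had Six2Cre differences of -1.60 and -0.70 (limma adjusted p = 0.435 and 0.741), with opposite signs in the lines as for Cyp2d26 and Cyp2j5. Summed levels of the list were 3.60 and 3.80 in the Six2Cre controls, 2.09 and 2.17 in the knockouts, and 3.56 and 3.79 in the CreER control and knockout.

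**Figure D5:**
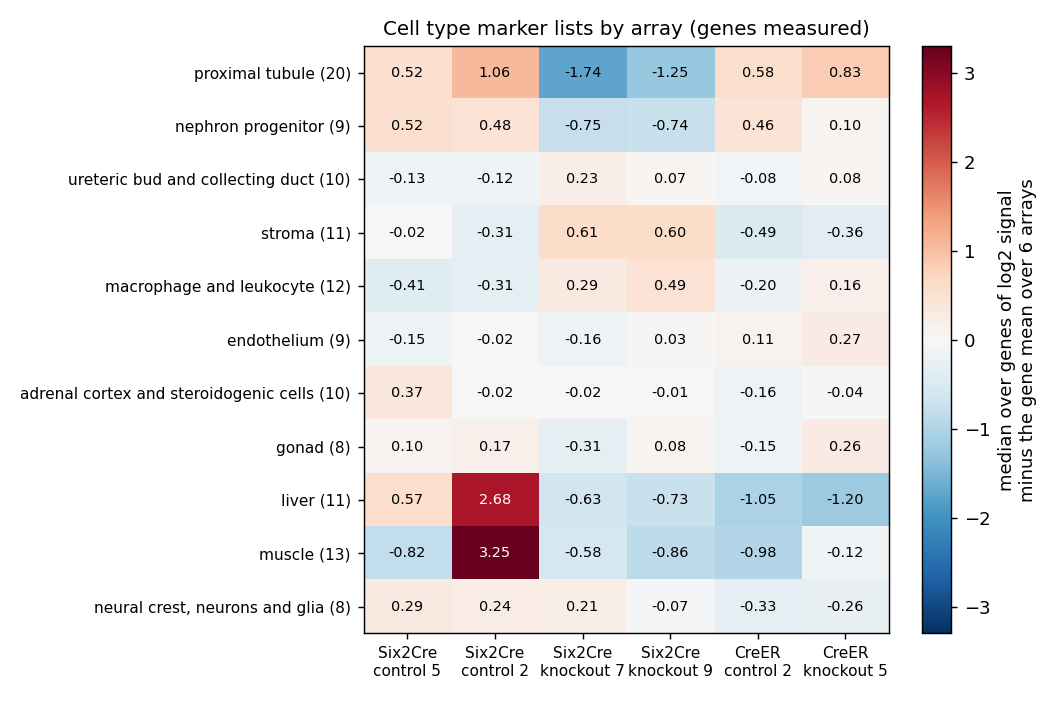
Median over the markers of each cell type of log2 signal minus the gene's mean over the 6 arrays, for 11 lists (rows, with the number of genes measured) and 6 arrays (columns); red is above and blue below the mean. Proximal tubule markers are low in the Six2Cre knockouts alone, and liver and muscle markers are high on Six2Cre control 2.

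Nephron progenitor markers had a Six2Cre median of -1.15, with 9 of 9 lower, and a CreER median of -0.46. This list includes the deleted gene Sall1 itself, at -1.25 and, in the CreER pair, -2.78. Stroma markers had 0.88 and 0.11, macrophage and leukocyte markers 0.69 and 0.36, and ureteric bud and collecting duct markers 0.22 and 0.09. Endothelium, gonad, adrenal cortex, and neural and glial markers had Six2Cre medians from -0.50 to 0.02 and CreER medians from -0.03 to 0.26. Muscle markers had a Six2Cre median of 0.28 on slide 1 and -4.27 on slide 2, and 13 of 13 were higher in the CreER knockout, with a median of 0.62. The part of each of these cell types in the P450 differences was not tested.

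Nuclear receptors and other factors that control P450 genes were close to their controls as a list, with a Six2Cre median of -0.06 over 20 genes and 11 lower. Hnf4a, the factor of liver and proximal tubule that is also in the tubule list, had the lowest p, at -1.52 and -1.40 in the Six2Cre controls and -5.33 and -4.32 in the knockouts. Its difference was -3.36 ± 0.41 (SE; limma adjusted p = 0.138), and in the CreER pair it was 0.10. Vdr, the vitamin D receptor, and Nr1i2, the pregnane X receptor, had -1.13 and -1.47 (limma adjusted p = 0.493 and 0.656), and 0.06 and -0.50 in the CreER pair. The redox partners of P450 enzymes and the haem genes had a Six2Cre median of 0.09 over 11 genes. Hmox1, Cyb5a and Pgrmc1 had the lowest p of these, with differences of 0.45, 0.33 and 0.24, and 0 genes of the list had an unadjusted p under 0.05.

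Conjugating enzymes, which act on the products of P450 enzymes, had a Six2Cre median of 0.08 over 29 genes, with 12 lower. The glucuronosyl transferase genes Ugt2b37, Ugt2b5 and Ugt2b38 had the lowest p, with differences of -3.08, -2.04 and -2.90 (limma adjusted p = 0.0860, 0.141 and 0.180). CreER differences of these were 0.48, 1.74 and 0.69. All of these thus had opposite signs in the lines, as Cyp2d26 and Cyp2j5 did, and so did Slc27a2 and the dim Acox2. Ugt2b5 was at least 2-fold higher in the CreER knockout, and Ugt2b37 and Ugt2b38 were higher by less than 2-fold.

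Of the 3 vitamin D hydroxylases, Cyp24a1 was lower in all 3 knockouts and the other two had differences of both signs. Cyp24a1, which degrades active vitamin D and is induced by it in the proximal tubule, stood at -5.74 and -6.20 in the Six2Cre controls and at -6.36 and -6.56 in the knockouts, and at -5.88 and -7.02 in the CreER control and knockout. All knockouts lay below all controls, the CreER knockout was not well above background, and its signal was at least 1.46-fold lower than in the CreER control. The Six2Cre signal differed by -0.48 ± 0.29 (SE; limma adjusted p = 1.00), and by -0.19 with normexp. Cyp27b1, which activates vitamin D in the kidney, stood at -4.35 and -4.67 in the Six2Cre controls and at -4.73 and -4.62 in the knockouts, and at -4.68 and -4.62 in the CreER pair, so that the groups overlapped. Cyp2r1, the 25-hydroxylase of vitamin D, stood at -4.70 and -4.55 in the Six2Cre controls and at -3.96 and -4.29 in the knockouts, and at -4.45 and -4.66 in the CreER pair. Its Six2Cre difference of 0.50 ± 0.27 (SE; limma adjusted p = 1.00) had the other sign in the CreER pair, -0.21.

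Enzymes of cholesterol, oxysterols and bile acids had 4 members kept. Cyp7b1, which hydroxylates oxysterols, stood at 1.02 and 1.32 in the Six2Cre controls, at 1.44 and 1.69 in the knockouts, and at 1.40 and 1.59 in the CreER pair. Each knockout was above its partner, by 0.42, 0.37 and 0.20. Cyp39a1, another oxysterol hydroxylase, stood at -0.15 and -0.24 in the Six2Cre controls, at 0.36 and -0.06 in the knockouts, and at -0.21 and -0.34 in the CreER pair. Cyp46a1, the cholesterol 24-hydroxylase of neurons, lay between -3.60 and -3.35 on all 6 arrays. Cyp27a1, the mitochondrial sterol 27-hydroxylase, stood at -4.35 and -3.73 in the Six2Cre controls, at -4.37 and -3.75 in the knockouts, and at -3.59 and -3.99 in the CreER pair, and followed the slide in the Six2Cre line. Their Six2Cre differences ran from -0.02 to 0.39, with a limma adjusted p of 1.00 for each.

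Of the steroid hormone enzymes 3 were kept. Cyp17a1, which makes androgen and cortisol precursors, stood at -2.04 and -2.92 in the Six2Cre controls, at -2.12 and -2.65 in the knockouts, and at -2.86 and -2.59 in the CreER pair. Cyp21a1, the steroid 21-hydroxylase of the adrenal cortex, stood at -7.25 and -7.13 in the Six2Cre controls, at -7.11 and -8.12 in the knockouts, and at -7.33 and -7.69 in the CreER pair. Cyp19a1, the aromatase that makes oestrogen, lay between -8.20 and -7.43 and was well above background on 2 arrays. In each the Six2Cre groups overlapped, with differences of 0.09, -0.43 and -0.15 and SE of 0.41, 0.41 and 0.28. The adrenal marker list had a median of -0.50 in the Six2Cre line, with 8 of 10 lower, and its genes of lowest p were Nr0b1, Akr1b7 and Mrap, at 2.21, -0.85 and -0.78 (limma adjusted p = 0.208, 0.670 and 0.771).

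The orphan Cyp20a1 stood at -1.14 and -1.19 in the Six2Cre controls, at -0.94 and -0.56 in the knockouts, and at -0.61 and -0.92 in the CreER control and knockout. Its Six2Cre knockouts lay above their controls and its CreER knockout below its own. The Six2Cre difference was 0.41 ± 0.27 (SE; limma adjusted p = 1.00).

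Across the 50 members, both Six2Cre knockouts lay below both controls for 13 (26.0%), against 12.6% of all features. They lay above both controls for 14 (28.0%), against 17.6%. All 3 knockout and control pairs (the Six2Cre pairs by slide and the CreER pair) were below 0 for 10 members (20.0%). Over all features this share was 14.3%. The 3 pairs were above 0 for 15 members (30.0%), against 20.0% of all features. Between the 2 Six2Cre controls the median size of the members' differences was 0.45, against 0.39 for all features, and between the knockouts it was 0.35 for both.

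In the CreER pair, without replication, the processed signal of 5 of the 48 members measured (10.4%) was at least 2-fold lower. Over all features this share was 2.21%. The signal of 5 members (10.4%) was at least 2-fold higher, against 1.38% of all features. The 5 lower members were 1 with normexp and 0 with detection on all 6 arrays. The 5 lower members were Cyp26a1, Cyp2a5, Cyp4a31, Cyp2g1 and Cyp24a1, and each was not well above background on the CreER knockout array, the one with the noisiest background. By its bound Cyp26a1 alone was at least 2-fold lower, Cyp24a1 and Cyp2a5 had bounds of 1.46-fold and 1.13-fold, and Cyp4a31 and Cyp2g1 had none. The 5 higher members were Cyp2j5, Cyp2d26, Cyp2j11, Cyp1a1 and Cyp2d10, and all but Cyp1a1 were well above background on both arrays.

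In a fit of genotype to the 6 arrays together, adjusted for line and slide, limma called 0 features (0%) and 0 members at an adjusted p under 0.05. At an unadjusted p under 0.05, 7 members were lower, against 3.92% of all features, and 7 higher, against 5.78%. Among those lower, Cyp4a31, Cyp2a5 and Cyp2g1 were well above background in no knockout and were kept through control arrays alone. Cyp26a1 had a difference of -2.88 ± 0.40 (SE; adjusted p = 0.257) and Cyp2a5 of -2.28 ± 0.14 (SE; adjusted p = 0.213), the lowest adjusted p of the fit. Cyp2a5 was well above background on Six2Cre control 2 and the CreER control alone, so its difference and SE rest on signals near background. Cyp26b1, Cyp4a10 and Cyp4a31 had -0.58, -2.09 and -3.25 (adjusted p = 0.414, 0.414 and 0.337). With normexp Cyp26a1 had -1.58 (adjusted p = 0.0232), the 1 member among the 36 features called (0.136% of all), while Cyp2a5 and Cyp4a31 had -0.25 and -0.36. Cyp2d26 and Cyp2j5, whose lines differed in sign, had -1.36 ± 1.06 and -0.15 ± 0.96 (SE; adjusted p = 0.697 and 0.964).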

How the data were processed

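Total RNA of 6 kidney samples was extracted with Trizol, and 0.25 ug per sample was labelled with Cy3 by the authors, per the labels' protocols. Per the file headers, scans were read with Feature Extraction 10.5.1.1, whose processed signal is a linear intensity, background-subtracted within the array and not normalized between arrays, with flags for outlier spots and for signals well above background. The authors' deposited values for the series held the same intensity, on a linear scale and uncentred: 100% of its values for probes with a single spot matched the scanner value to within a relative 0.001. Column medians of that table were 234 and 202 in Six2Cre controls 5 and 2, 217 and 216 in knockouts 7 and 9, and 217 and 186 in the CreER control and knockout.

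Spots of a probe were averaged, and 40987 of 41174 probes had an unflagged spot on every array. RefSeq accessions, without versions, named 24999 probes for 17235 genes of GRCm38.p6. No gene positions are given from it except the promoters, since the array was designed on another build. The brightest probe stood for a gene, and 26396 features (15236 named genes) were well above background on at least 2 arrays. No spot was saturated.

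Log2 signal minus the 75th percentile was fitted with limma 3.58.1 (R 4.3.3), two-sided, with Benjamini-Hochberg adjustment over all features and a threshold of 0.05; the code was tested on simulated data. Plots used Python 3.11.15 and matplotlib 3.10.9. The main fit had 4 groups. Named genes were the 10 members of lowest p, those at least 2-fold in both slide pairs or in the CreER pair, all kept members of the retinoid, vitamin D, sterol and steroid roles, the lowest p of every other role, and 3 genes of each list; of the marker lists, those of the proximal tubule and adrenal were so named and the others are given by medians. The members and lists were chosen with earlier results of these data known. Alternatives were normexp, quantile scaling, other filters, the mean of a gene's probes, the authors' table, the slide as a block or within pairs, and leaving out arrays. Normexp used median pixel intensity, since the deposited files hold no mean signal, which had been planned.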

Additional observations from a re-analysis of the deposited data

Results flagged for a closer look

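Cyp2d26 had opposite directions in the lines: the Six2Cre effect minus the CreER effect was -4.55 on the log2 scale (SE 0.60; unadjusted p = 0.000855, limma adjusted p = 0.876), with both Six2Cre pairs below 0 and the single CreER pair above. Cyp2j5 had the same form, with a difference of -4.11 (SE 0.50; unadjusted p = 0.000582, limma adjusted p = 0.876). Neither passed the adjusted threshold, and the CreER side is 1 pair of arrays.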

How the results depend on the processing

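Of 367 Six2Cre values of the 25 named genes under alternatives, 20 turned sign and 4 passed the threshold, and 18 genes kept their sign in all. Members at least 2-fold lower in the Six2Cre line numbered 3 with normexp and 4 with detection on all 6 arrays, against 8, and 6 to 9 with an array left out. Members 2-fold higher numbered 0 with normexp, quantile scaling or detection on all 6 arrays, 2 with no filter, and 1 to 3 with an array left out, the 3 without Six2Cre knockout 9. CreER members 2-fold lower numbered 1 with normexp and 0 with detection on all 6 arrays, against 5. With the slide block, trend and robust spread 625 features and 4 members were called, and with normexp 36 features were called for genotype over 6 arrays, Cyp26a1 among them (limma adjusted p = 0.0232); the causes were not tested. With normexp Cyp27a1 was 9e-04, Cyp3a11 -0.0399 and, in the CreER pair, Cyp2g1 0.0694; with quantile scaling Cyp27a1 was 0.0226; with a mean of probes Cyp2j11 was -0.0775. On slide 1 alone Cyp17a1 was -0.085, Cyp21a1 0.14 and Cyp3a11 -0.027, and on slide 2 alone Cyp19a1 was 0.152, Cyp27b1 0.0466 and Cyp2j11 -0.0587. With 1 Six2Cre array left out Cyp17a1 ran from -0.349 to 0.532, Cyp19a1 from -0.351 to 0.0603, Cyp21a1 from -0.938 to 0.0803, Cyp27a1 from -0.332 to 0.293, Cyp2j11 from -0.777 to 1.14 and Cyp3a11 from -0.299 to 0.323. Signals near background limit Cyp4a31, Cyp2a5, Cyp2g1, Cyp1a1 and Cyp19a1, and all members on CreER knockout 5. The groups compared share no replicate number; the slide, which pairs a Six2Cre control with a knockout, was the block fitted, with 0 calls in the plain fit.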
